A study of Mus musculus with 12 samples.

Results

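The NMDA receptor subunit genes are the 7 mouse genes Grin1, Grin2a, Grin2b, Grin2c, Grin2d, Grin3a and Grin3b, chosen by family membership. They are 7 of 21887 protein-coding genes placed on autosomes, X or Y in the RefSeq GRCm38.p6 gene table. For each gene, every pan-lysine-crotonylation (pan-Kcr) peak that touched the gene body or the 5 kb beyond either end (the gene window) was collected from a learning and a homecage list. The 7 windows together spanned 1235 kb and held 10 of the 16243 learning peaks and 154 of the 332168 homecage peaks. Both lists came from chromatin immunoprecipitation sequencing (ChIP-seq) of dorsal hippocampus of C57BL/6J mice with 1 pan-Kcr antibody. The learning mice had been trained in a spatial object recognition task and the homecage mice had stayed in their cages. Age and sex of these mice, the time between training and dissection, and pooling of animals are not given in the sources used here. About 20 mg of tissue was crosslinked in 1% formaldehyde, and chromatin was sheared to fragments of 200 to 500 bp.

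Each condition had 1 antibody library, so no difference between the lists has a replicate check and no test across conditions was made. A peak has a position and a width only. Read depth is unknown, and with the homecage list so much longer, a difference in peak number between the lists cannot be told apart from a difference in depth or in antibody enrichment. The tissue is a mixture of cell types, and a peak does not say in which cells it arose. Peaks are not a measure of expression, so markers check the tissue only weakly. Of 26 marker genes of hippocampal cell types, 8 had a learning peak in the gene or within 5 kb of it and 24 a homecage peak, beside 30.9% and 90.5% of all protein-coding genes. The learning peaks lay at 3 of 6 excitatory neuron markers, 0 of 5 interneuron markers, 2 of 5 astrocyte markers, 2 of 5 oligodendrocyte markers and 1 of 5 microglia markers.

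NMDA receptors are glutamate-gated cation channels of excitatory synapses. They open only when glutamate and a co-agonist, glycine or D-serine, are bound and depolarization has removed the magnesium block, and the calcium that enters starts the synaptic changes that underlie many forms of learning. Every receptor contains GluN1, which Grin1 encodes. GluN2 subunits, from Grin2a to Grin2d, bind glutamate and set the channel's kinetics, with GluN2A and GluN2B the main forms of the adult forebrain. GluN3 subunits, from Grin3a and Grin3b, bind glycine and lower calcium entry. Lysine crotonylation is an acyl mark found on histone lysines among other proteins, and on histones it is known from active promoters and enhancers.

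The gene table gives no strand, so the ends of a gene are called the lower-coordinate and the higher-coordinate end. The RefSeq promoter table, of the same build, holds a start region for 4 of the 7 genes, Grin1, Grin2c, Grin2d and Grin3b. A start region there is the 250 bases before and 50 after an annotated start. No peak of either list lay over any of these 4 start regions. Over all 32851 start regions in the table, 4.15% had a learning peak and 17.9% a homecage peak. The start region before Grin1 is shown because it had no peak, and that of Lrrc26, the neighbour beyond the other end of Grin1, because a homecage peak covered part of it. Both are the 250 bases before the annotated start, 5′ to 3′, in GRCm38.p6 from RefSeq. In the Grin1 sequence (chr2:25319188-25319437, minus strand) the capitals mark CG dinucleotides. In the Lrrc26 sequence (chr2:25289661-25289910, plus strand) they mark the 155 bases under the 766 bp homecage peak.
Grin1: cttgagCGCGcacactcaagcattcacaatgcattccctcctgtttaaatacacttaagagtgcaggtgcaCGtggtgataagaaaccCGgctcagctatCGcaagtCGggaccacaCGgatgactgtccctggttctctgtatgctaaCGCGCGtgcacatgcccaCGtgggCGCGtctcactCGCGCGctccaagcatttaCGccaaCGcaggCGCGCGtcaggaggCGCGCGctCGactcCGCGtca
Lrrc26: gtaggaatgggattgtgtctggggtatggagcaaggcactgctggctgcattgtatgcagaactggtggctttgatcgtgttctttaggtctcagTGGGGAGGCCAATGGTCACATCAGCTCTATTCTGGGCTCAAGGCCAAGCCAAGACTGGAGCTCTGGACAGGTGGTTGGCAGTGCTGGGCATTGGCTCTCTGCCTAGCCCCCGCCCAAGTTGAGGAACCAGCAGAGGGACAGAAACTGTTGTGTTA
The Grin1 stretch held 27 CG dinucleotides and the Lrrc26 stretch 2, beside a median of 6 over all start regions (25th to 75th percentile 2 to 16). The corresponding numbers were 15 for Grin2c, 9 for Grin2d and 2 for Grin3b. The GC box GGGCGG, searched on both strands, occurred 3 times before Grin2c, with 2 of the matches sharing a base, once on the opposite strand before Lrrc26 and not in the windows before Grin1, Grin2d and Grin3b. It was present in 32.7% of all start regions. The cAMP response element TGACGTCA (1.55% of start regions) and the Egr motifs GCGTGGGCG and GCGGGGGCG (3.06% with either) had no match in these 250-base windows of the 4 genes. An Egr match can overlap a GC box. The nearest homecage peak lay 2103 bp from the annotated start of Grin1, 1338 bp from that of Grin2c, 3900 bp from that of Grin3b and 16872 bp from that of Grin2d. The nearest learning peak lay 6334 bp or more from each of the 4 starts. The 6334 bp is for Grin2d, whose start used here lies 4513 bp inside the higher-coordinate end of the gene. From that end the nearest learning peak was 1821 bp away.

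A learning peak was present in the windows of 5 of the 7 genes (71.4%, exact Clopper-Pearson 95% interval 29.0 to 96.3%), all but Grin2c and Grin3b. The share over all protein-coding genes was 30.9%, inside that interval. This share differed between length classes. Among protein-coding genes of at least 200 kb, 77.0% had a learning peak, and Grin2a and Grin2b, the 2 members of that class, both had one. Both held 3 learning peaks, and 31.7% of the genes of that class held at least 3. Among genes under 50 kb the share was 23.9%, and of the 4 members of that class Grin1 and Grin2d had one. A homecage peak was present in all 7 windows, beside 90.5% of all protein-coding genes. Pooled over its windows, the family was close to the background of all genes in both lists. Its 7 windows held 0.810 learning and 12.5 homecage peaks per 100 kb, beside 0.854 and 13.7 over the windows of all protein-coding genes. This pools unlike lengths. Pooled learning density was 0.525 in genes of at least 200 kb, below Grin2a (0.685) and Grin2b (0.638). In genes under 50 kb it was 1.25, below Grin1 (2.63) and Grin2d (4.06), while Grin2c and Grin3b had 0. In windows this short, a single peak already gives more than 1.25. The contrast among these 4 genes therefore only restates which of them had a learning peak. These differences were not tested.

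**Figure D1:**
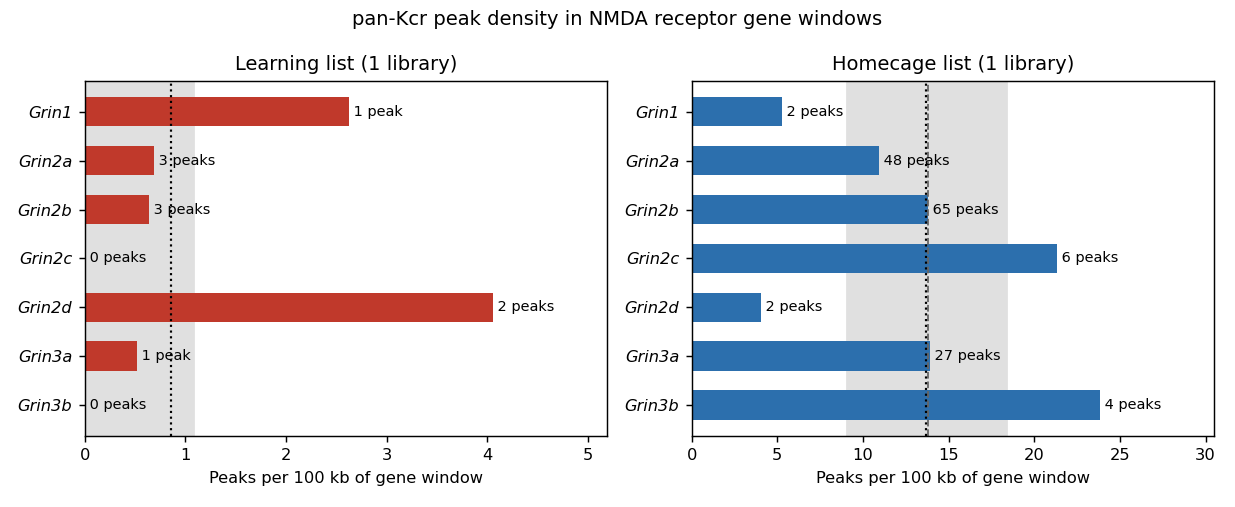
Peaks per 100 kb of gene window (x axis) for each of the 7 genes (y axis) in the learning list (left, red) and the homecage list (right, blue), with the number of peaks beside each bar. The grey band is the 25th to 75th percentile over all protein-coding genes, the dashed line their median (0 in the learning list, on the axis) and the dotted line the peaks of all their windows over the summed window length. Grin1 and Grin2d are above the band in the learning list and below it in the homecage list. Grin2c and Grin3b are above it in the homecage list and have no learning peak. In windows as short as those of these genes, a single learning peak already lies above the band.

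The family was not uniform. Grin1 and Grin2d had few homecage peaks for their length and were the densest of the 7 in learning peaks. Grin2c and Grin3b had the most homecage peaks per length and no learning peak. Grin2a, Grin2b and Grin3a were long genes with many homecage peaks and 1 to 3 learning peaks. The learning densities of the 4 short genes rest on 0 to 2 peaks each. In windows that short, a single peak already exceeds the learning densities of Grin2a, Grin2b and Grin3a. The order of the genes was not tested.

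Grin1, the obligatory subunit, spans 28.0 kb (chr2:25291177-25319187). It had 1 learning peak and 2 homecage peaks in its window. The learning peak (chr2:25291637-25292079) was 443 bp wide, wider than or as wide as 76.9% of learning peaks. It began 460 bp inside the lower-coordinate end, which is the end away from the annotated start, and lay also within Grin1os, an antisense long noncoding RNA gene. Which gene the peak belongs to cannot be told apart. The homecage peaks lay on either side of it. The wider one (766 bp) ended 655 bp outside the lower-coordinate end, in Lrrc26, and 1115 bp from the learning peak. The other (chr2:25316651-25317083, 433 bp) lay 2104 bp inside the end that holds the start. Between them, 26129 bp had no homecage peak. Homecage density was 5.26 peaks per 100 kb in the Grin1 window and 14.7 in the 500 kb on either side of it. Learning density was 2.63 and 1.5, where the window value is that of its 1 learning peak.

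Grin2d, the GluN2 subunit known from interneurons and early development, spans 39.3 kb (chr7:45831883-45871194) and had 2 peaks in each list. One learning peak (chr7:45832854-45833059, 206 bp) began 971 bp inside the lower-coordinate end, again the end away from the annotated start. It overlapped a 464 bp homecage peak (chr7:45833003-45833466) by 57 bp, or 27.7% of its width. The other learning peak (chr7:45873016-45873302, 287 bp) lay 1821 bp outside the higher-coordinate end, inside the neighbour Kdelr1, and the nearest homecage peak was 10251 bp away. The other homecage peak (504 bp) lay 868 bp outside the lower-coordinate end over the start region of Grwd1. Apart from the overlapping pair, the gene body held no peak of either list. Homecage density was 4.06 per 100 kb in the window and 11.9 in the 500 kb on either side, and learning density 4.06 and 0.9. The window densities rest in part on the flanks, since the gene body alone held 1 learning and 1 homecage peak. Among protein-coding genes under 50 kb with a learning peak, the median was 4 homecage peaks per learning peak, and 24.6% had at most 2, as Grin1 (2) and Grin2d (1) did.

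Grin2c, the GluN2 subunit known mainly from cerebellum and astrocytes, spans 18.1 kb (chr11:115249169-115267297). It had 0 learning peaks and 6 homecage peaks. The widest of these were 998 bp (chr11:115258838-115259835) and 869 bp (chr11:115262232-115263100), both inside the gene, and 3 of the 6 lay in the flanks. Grin3b, a GluN3 subunit known from motor neurons, spans 6.79 kb (chr10:79970397-79977190). It had 0 learning peaks and 4 homecage peaks, of which 1 (431 bp, chr10:79974625-79975055) lay inside the gene and the other 3 in neighbouring genes. The 2 widest were 660 bp in Tmem259 and 561 bp in Wdr18. The homecage densities of 21.3 and 23.8 per 100 kb therefore rest in part on the flanks. With the gene bodies alone the counts were 3 for Grin2c and 1 for Grin3b. Learning peaks were present around both genes, 11 and 16 in the 500 kb on either side.

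**Figure D2:**
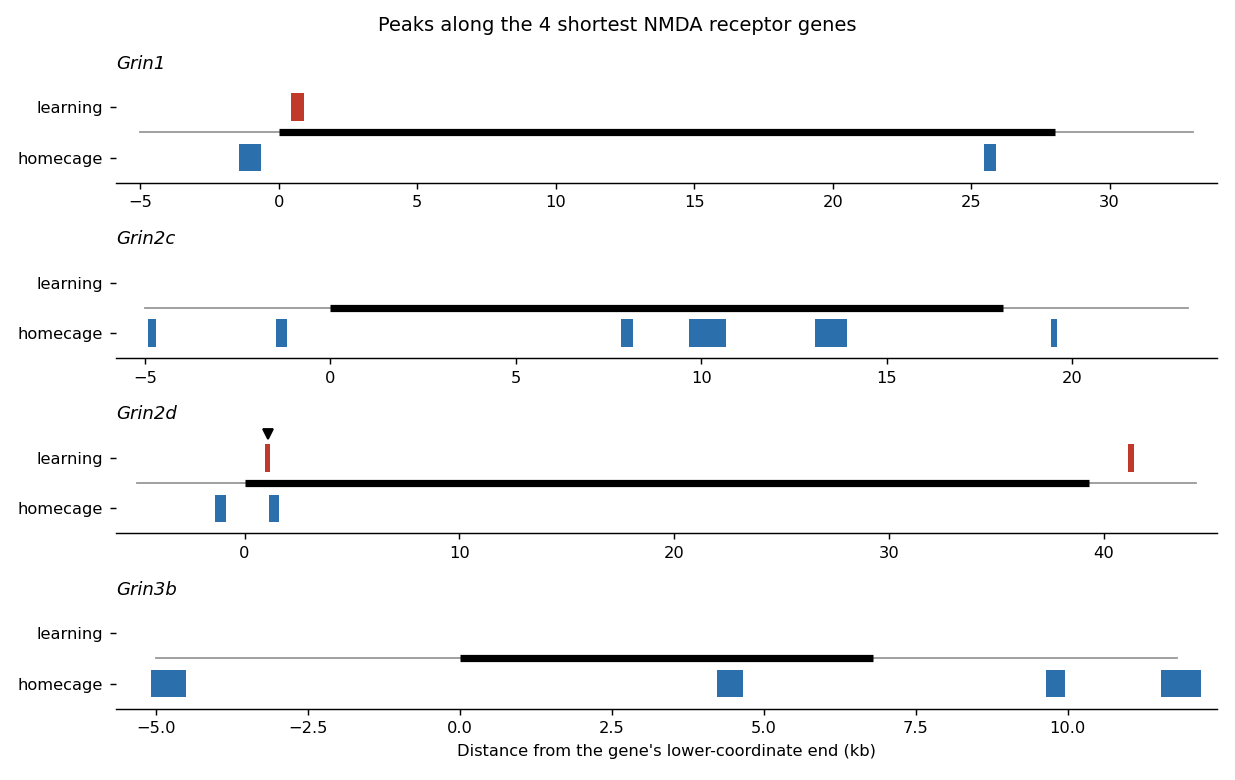
Peaks along Grin1, Grin2c, Grin2d and Grin3b. The x axis is the distance in kb from the lower-coordinate end of each gene, the black bar is the gene, the grey line the 5 kb flanks, red boxes are learning peaks and blue boxes homecage peaks, and a triangle marks a learning peak that overlaps a homecage peak. The Grin1 learning peak and 1 of the 2 at Grin2d lie near the lower-coordinate end, next to homecage peaks, and Grin2c and Grin3b have homecage peaks only.

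Grin2a, a main GluN2 subunit of the adult hippocampus, spans 428 kb (chr16:9567901-9996083) and had 3 learning and 48 homecage peaks, all inside the gene. The learning peaks were 401 bp (chr16:9618706-9619106), 521 bp (chr16:9785993-9786513) and 371 bp (chr16:9970695-9971065) wide. They lay 51.0, 218 and 403 kb from the lower-coordinate end, and the 521 bp peak was the widest learning peak of the family. The third overlapped a 230 bp homecage peak (chr16:9971036-9971265) by 30 bp, or 8.09% of its width. The nearest homecage peaks to the first and second were 6587 and 1309 bp away. The widest homecage peaks were 1206 bp (chr16:9780559-9781764) and 1121 bp (chr16:9583221-9584341), and the 1206 bp peak lay 4228 bp from the second learning peak. In 4 successive stretches of equal length from the lower coordinate, Grin2a had 7, 13, 11 and 17 homecage peaks, and the corresponding numbers were 13, 21, 14 and 15 in Grin2b and 5, 7, 5 and 8 in Grin3a. These differences were not tested. The longest stretch between neighbouring homecage peaks was 55815 bp, where the median of the longest stretch in genes of at least 200 kb was 30294 bp (25th to 75th percentile 23956 to 37906 bp). Homecage density, 11.0 per 100 kb, was above that of 17.1% of these genes, and learning density, 0.685, above that of 69.3%. Only 1 learning peak lay in the 500 kb on either side of the Grin2a window.

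Grin2b, the GluN2 subunit that is highest early in development and remains in adult forebrain, spans 460 kb (chr6:135713221-136173615). It had 3 learning and 65 homecage peaks. The learning peaks were narrow, 198 bp (chr6:135796213-135796410), 146 bp (chr6:135837565-135837710) and 146 bp (chr6:135941353-135941498). The narrowest width in the learning list is 146 bp, shared by 8.90% of its peaks. They lay 83.1, 124 and 228 kb from the lower-coordinate end, and none overlapped a homecage peak, with gaps of 1329, 1112 and 3005 bp. All 3 were narrower than the 3 learning peaks of Grin2a. The widest homecage peaks were 1431 bp (chr6:136163605-136165035) and 1024 bp (chr6:135859872-135860895, also in the long noncoding RNA gene Gm14330). The 1431 bp peak was the widest of the 154 and lay 8580 bp inside the higher-coordinate end. At that end itself, a 446 bp homecage peak (chr6:136172986-136173431) lay 184 bp inside the gene and a 147 bp peak 407 bp outside it, both also in the long noncoding RNA gene Gm26653. The nearest learning peak to these was 231487 bp away. Homecage density, 13.8 per 100 kb, was above that of 57.6% of genes of at least 200 kb, and learning density, 0.638, above that of 66.6%.

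Grin3a, the main GluN3 subunit of the forebrain, spans 184 kb (chr4:49661611-49846023) and had 1 learning and 27 homecage peaks. The learning peak (chr4:49844961-49845195, 235 bp) ended 828 bp inside the higher-coordinate end. A 445 bp homecage peak (chr4:49845449-49845893) lay 130 bp inside the same end, and the 2 peaks were 253 bp apart. The widest homecage peaks were 877 bp (chr4:49829239-49830115) and 567 bp (chr4:49792607-49793173). Densities in the window, 0.514 learning and 13.9 homecage peaks per 100 kb, were close to the 0.6 and 14.4 of the 500 kb on either side. Exon positions were not used here, so peaks inside genes are not divided into exonic and intronic ones.

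**Figure D3:**
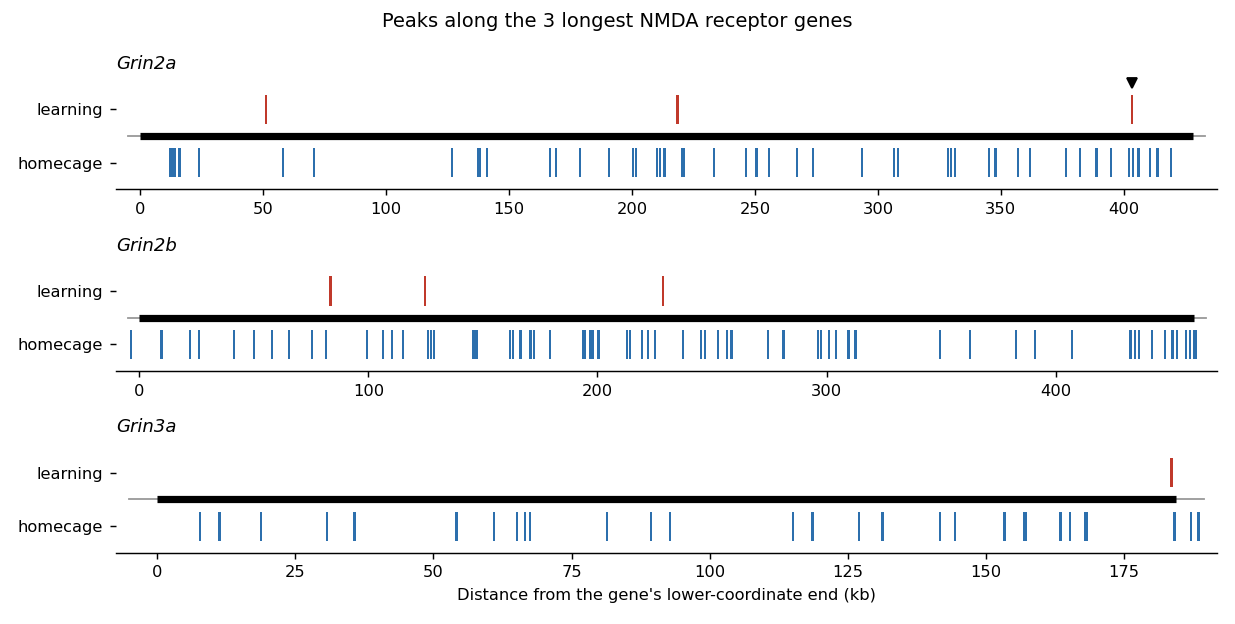
Peaks along Grin2a, Grin2b and Grin3a, drawn as in the map of the 4 short genes, with the distance from the lower-coordinate end in kb on the x axis and narrow peaks drawn at a minimum width. The 3 learning peaks of Grin2a spread over the gene, those of Grin2b lie in its lower-coordinate part, and that of Grin3a lies at its higher-coordinate end, while homecage peaks run along all 3 genes.

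Within 1 kb of a gene end, a learning peak was present at 3 of 7 genes, Grin1, Grin2d and Grin3a (42.9%, exact 95% interval 9.90 to 81.6%), beside 15.6% of all protein-coding genes. A homecage peak was present there at 4 of 7, the same 3 genes and Grin2b (57.1%, 18.4 to 90.1%), beside 60.9%. Both lists had a peak at an end of Grin1, Grin2d and Grin3a, beside 13.7% of all protein-coding genes. All 3 intervals include the background share. The learning peak was within 1 kb of the same end as a homecage peak in each of these 3 genes. Only in Grin2d did it overlap any homecage peak, and that one began 1120 bp inside the gene. The homecage peaks counted at the ends of Grin1 and Grin2d lay outside these genes, in Lrrc26 and over the start region of Grwd1. Both were at the end away from the annotated start.

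Few peaks coincided. A homecage peak overlapped 2 of the 10 learning peaks by at least 1 bp (20.0%, exact 95% interval 2.52 to 55.6%), 1 in Grin2a and 1 in Grin2d. The share was 48.1% of the 9291 learning peaks in windows of protein-coding genes, inside the interval. By genes, 2 of 7 had such an overlapping pair, beside 18.4% of all protein-coding genes. Conversely, 2 of 154 homecage peaks overlapped a learning peak (1.3%, 0.158 to 4.61%), beside 2.77% in windows of protein-coding genes. The intervals cover counting error only, and the peaks of 1 library are not independent replicates. Both overlaps were short. Among the 4473 learning peaks with a partner in windows of protein-coding genes the median overlap was 234 bp, and 2.95% had an overlap as short as the 30 bp in Grin2a and 6.24% as short as the 57 bp in Grin2d. When 50% of both peaks had to overlap, the family had no shared peak. The gaps between the other 8 learning peaks and the nearest homecage peak ranged from 253 to 10251 bp, with a median of 1319 bp, beside 1403 bp for learning peaks without a partner in windows of protein-coding genes.

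Peak widths of the family lay within the range of the lists at large. The 10 learning peaks ranged from 146 to 521 bp with a median of 261 bp, beside 312 bp in windows of protein-coding genes. The 154 homecage peaks had a median of 373 bp, beside 354 bp. The homecage medians of the genes with over 10 peaks were 402 bp in Grin2a, 356 bp in Grin2b and 369 bp in Grin3a. Of the learning peaks, only the 521 bp peak of Grin2a reached 500 bp, and 40 homecage peaks did, 15 of them in Grin2a and 14 in Grin2b.

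**Figure D4:**
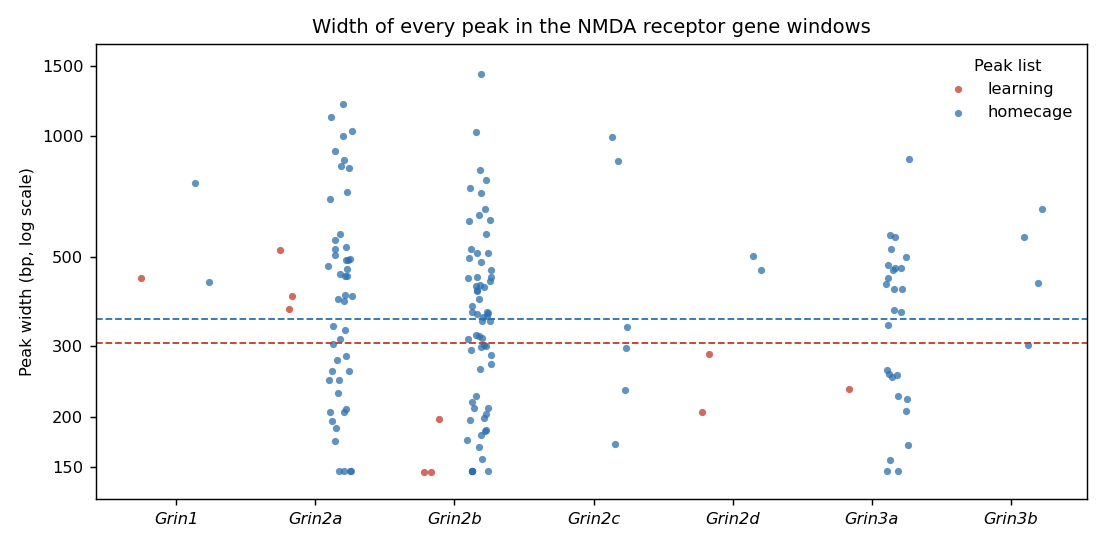
Width in bp (y axis, log scale) of every peak in the windows of the 7 genes (x axis), with learning peaks in red and homecage peaks in blue and points spread sideways for visibility. Dashed lines are the medians of the whole lists, 306 bp for learning and 351 bp for homecage. The Grin2b learning peaks are at the bottom of the range, those of Grin2a above the learning median, and the homecage peaks of the long genes spread from 147 to 1431 bp.

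The 4 AMPA receptor genes had 4 learning and 118 homecage peaks, or 0.352 and 10.4 per 100 kb. The pooled homecage value is lowered by Gria3, on chromosome X, with 1 homecage and 0 learning peaks (0.347 homecage peaks per 100 kb). Homecage density was 14.0 in Gria1, 12.8 in Gria2 and 13.9 in Gria4. Gria4 also had 0 learning peaks. The 5 kainate receptor genes had 15 and 262 (0.807 and 14.1 per 100 kb). The NMDA receptor genes, at 0.810 and 12.5, thus had about the learning density of the kainate genes. A homecage partner was found for 1 of 4 learning peaks in the AMPA genes and 7 of 15 in the kainate genes. Among these 9 genes, Grik2 (7, of which 5 overlapped a homecage peak) and Grik5 (4, of which 2 did) had the most learning peaks. Their learning densities were 0.991 and 5.27 per 100 kb. No test was made between the families, whose peaks come from the same 2 libraries.

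A list of 29 partners of the receptor was described in the same way. A learning peak was present in the windows of 18 (62.1%, 42.3 to 79.3%) and a homecage peak in all 29, beside the 30.9% and 90.5% of all protein-coding genes. The 30.9% is not matched to the partners for gene length. Many partner genes are long, and pooled over their windows they had 0.732 learning and 14.3 homecage peaks per 100 kb. Over all protein-coding genes, of other lengths, the pooled values were 0.854 and 13.7. The pooled learning value of the partners is lowered by Dlg2, a gene of 1973 kb in a summed window length of 4916 kb. Dlg2 held 8 of the 36 learning peaks, or 0.403 per 100 kb. The pooled value therefore does not show that the other partners lay below the value of all protein-coding genes. By role, 11 of 15 scaffold and signalling genes, 2 of 7 genes of co-agonist supply and removal, 3 of 3 extracellular and receptor partners and 2 of 4 transcription factors of subunit genes had a learning peak. The most learning peaks were in Dlg2 (8), a PSD-95 family scaffold, and Reln (4), the extracellular signal reelin. Next were Camk2b, Camk2a, both subunits of the calcium/calmodulin kinase that binds GluN2B, and Lrp8, a reelin receptor, with 2 each. These counts are not corrected for gene length. Dlg2 spans 1973 kb and Reln 460 kb, and their learning densities were 0.403 and 0.851 per 100 kb. The median over protein-coding genes of at least 200 kb was 0.418 (25th to 75th percentile 0.172 to 0.798). A learning peak that overlapped a homecage peak lay within 1 kb of a gene end in 8 of 29 partners (27.6%, exact 95% interval 12.7 to 47.2%), beside 10.9% of all protein-coding genes. The 10.9% is not matched for gene length either, and the interval covers counting error only. The list of partners was chosen with earlier results of these data known, so its shares cannot show enrichment, and no test of it was made. The 8 partners were Dlg2, Dlg4 (PSD-95 itself), Src (a kinase that phosphorylates the receptor), Grina, Slc6a9 (the glycine transporter GlyT1), Lrp8, Rest (a repressor of neuronal genes) and the transcription factor gene Nrf1. Their learning peaks were 230 to 956 bp wide. The widest were 956 bp at Nrf1 (chr6:30047613-30048568), 935 bp at Dlg4 and 730 bp at Src (chr2:157424049-157424778, overlapped by a 1957 bp homecage peak). Of the 7 subunit genes, 1 met this description (14.3%, 0.361 to 57.9%), by the 206 bp peak of Grin2d. Both intervals are wide and overlap.

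The protein-coding gene with the same number of learning peaks and the closest number of homecage peaks, then the closest window length, was Gdi2 for Grin1 (1 and 2 peaks), Fbxl17 for Grin2a (3 and 48), Gabrb1 for Grin2b (3 and 64), Upp1 for Grin2c (0 and 6), Zbtb10 for Grin2d (2 and 2), F13a1 for Grin3a (1 and 27) and Ntsr2 for Grin3b (0 and 4). This likeness is over 2 libraries only. The counts of Grin3b were found in 1546 other genes, those of Grin2c in 850 and those of Grin1 in 430. Those of Grin2d were found in 41, those of Grin3a in 22, those of Grin2a in 3 and those of Grin2b in 0.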

How the data were processed

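Peaks came from 2 ChIP libraries, learning and homecage, assigned by their titles. The other 10 samples of the series were not analysed here. The deposited files hold peak coordinates (start and end in base pairs) with no strength or read count, and per the peak names the authors called broad peaks at a p-value threshold of 0.01 for each library. The submitters' processing notes name Trimmomatic, BWA, MACS2 and mm10, the browser name of GRCm38. Versions and the use of the input libraries are not given in the sources used here. A loose threshold admits weak peaks, and peak number depends on depth, which is unknown.

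Coordinates are 1-based. Genes came from the RefSeq GRCm38.p6 table and start regions from the RefSeq promoter table. Peaks were shared at 1 bp of overlap, and shares carry exact Clopper-Pearson 95% intervals. The subunit genes are all named with each learning peak, other genes by number of learning peaks or by overlap at a gene end. Members and lists were chosen with earlier results of these data known, and the class under 50 kb and the 500 kb surroundings after the values were seen. Intervals were computed with scipy 1.17.1, and figures were drawn with matplotlib 3.10.9. Tables were handled with Python 3.11.15, pandas 2.3.3 and numpy 2.4.6. Part of a planned comparison list is not reported here. Counting was tested on simulated data. Alternatives were other flanks, peak centres, peaks of at least 500 bp, merged peaks, a homecage list cut to its widest peaks and other overlap rules.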

Additional observations from a re-analysis of the deposited data

How the results depend on the processing

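No paired analysis was possible because learning and homecage were represented by 1 library each, and no replicate could be left out. Strength thresholds were not run because the files carry no strengths. Changing the flank (0, 1 or 10 kb), counting peaks by their centre or merging peaks closer than 1 kb left the family's totals within 1.5 times, with 9 to 10 learning and 136 to 166 homecage peaks. Keeping only peaks of at least 500 bp left 1 learning peak in 1 gene, 40 homecage peaks, 0 shared peaks in either direction, and a peak at a gene end in 0 genes (learning) and 2 genes (homecage). Cutting the homecage list to its 16002 widest peaks, each of at least 884 bp, left 8 homecage peaks in 3 genes and 0 shared peaks in either direction. Requiring 50% overlap of both peaks also left 0 in either direction. Counting peaks within 1 kb of each other as shared gave 3 learning and 4 homecage peaks. With 3 or 5 kb at the gene ends, 3 genes had a learning peak there and 6 a homecage peak. After 19 values that a setting could not change (such as learning counts when the homecage list is cut) were left out, 36 of 50 recomputed family totals stayed within 1.5 times. The other 14 did not. For single genes these numbers were 52 and 29 of 81. Some values that could not change remain among those that stayed. An example is the 7 of 7 genes with a homecage peak under a 10 kb flank or merging.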
